A study of Mus musculus with 28 samples.

Results

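Interferon-inducible genes were followed through the tibialis anterior (TA) muscle transcriptomes of 28 mice. The 45 genes described here were chosen by name as interferon-inducible genes and GTPases, with earlier results of these data in view. They make up 45 of the 55416 gene identifiers in the count table of the Dnm2 cohort, and 45 of 55359 in that of the Bin1 cohort. Gm4841 (ENSMUSG00000068606) and Gm12185 (ENSMUSG00000048852) were included because they were among the most raised genes in untreated Dnm2 S619L/+ muscle compared with WT muscle. The values of that contrast are therefore a description, without a test, for all 45 genes.

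RNA-seq was done on TA muscles of 8-week-old C57BL/6N mice in 2 cohorts. In the Dnm2 cohort (cohort G), WT mice and heterozygous Dnm2 S619L/+ knock-in mice, which carry the S619L mutation of the neonatal form of centronuclear myopathy in the GTPase dynamin 2, received a diet with tamoxifen or a placebo diet, giving 4 groups. In the Bin1 cohort (cohort F), Bin1 mck-/- mice, which lack the membrane-remodelling protein amphiphysin 2 (Bin1) in muscle only, received tamoxifen or placebo, and WT mice received placebo. Each of the 7 groups held 4 mice. The deletion of Bin1 is driven by the muscle creatine kinase (mck) promoter, so other cells of the Bin1 mck-/- muscle still carry the gene. RNA input and fragmentation time were 350 ng and 8 min in the Bin1 cohort but 300 ng and 2 min in the Dnm2 cohort, and no value was compared between cohorts. The labels do not tie mice of different groups to litters. P-values weigh a difference against the spread between these mice, which was estimated over all groups of a cohort.

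Interferons are cytokines that cells release when they sense infection or damage. Type I interferons signal through the receptor chains Ifnar1 and Ifnar2, and interferon gamma, made mainly by T cells and natural killer (NK) cells, signals through Ifngr1 and Ifngr2. Both receptors act through Janus kinases. Type I interferon brings Stat2 and Irf9 to the interferon-stimulated response element (ISRE), whereas interferon gamma acts through the gamma-activated site (GAS). The immunity-related GTPases (IRG) and the guanylate-binding proteins (GBP) are families of interferon-induced GTPases that attack the membranes around intracellular pathogens. Cxcl9 and Cxcl10 draw activated T cells into tissue, and the Ifit, Oas and Mx proteins block viral RNA and its replication. Socs1 shuts the Janus kinases off again.

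Promoter sequences are shown first of the 5 IRG genes with both a GAS and an ISRE match. The levels of the IRG genes differed widely between mice. Sequences of Cxcl10, and of Rsad2 and Ifit1, which did not follow the IRG genes, come next. Cxcl10 was higher in mutant than in WT mice on the same diet in both cohorts, but rested on 32 reads against 1 in the Bin1 cohort. Its tests were not independent of the filter on low counts, as given below. All sequences come from RefSeq (GRCm38.p6) and end at the last base before the annotated start of transcription. RefSeq windows were matched for 31 of the 45 genes, and those of Gm4841, Iigp1, Gbp4, Gbp6, Gbp9, Nlrc5, Mx1, Mx2, Oas2, Zbp1, Usp18, Ifi27, Rtp4 and Parp14 are not analysed here. The 120 bases upstream of 5 IRG genes, written 5′ to 3′ on the strand of the gene, are as follows, with a GAS match (TTCNNNGAA) and an ISRE match (GAAA, any 2 bases, GAAA, or TTTC, any 2 bases, TTTC on the other strand) in capitals.
Gm12185: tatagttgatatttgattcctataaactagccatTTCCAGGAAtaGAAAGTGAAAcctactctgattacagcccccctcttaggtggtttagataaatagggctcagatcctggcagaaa
Igtp: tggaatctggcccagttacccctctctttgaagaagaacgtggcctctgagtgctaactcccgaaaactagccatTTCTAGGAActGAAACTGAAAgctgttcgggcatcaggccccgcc
Irgm2: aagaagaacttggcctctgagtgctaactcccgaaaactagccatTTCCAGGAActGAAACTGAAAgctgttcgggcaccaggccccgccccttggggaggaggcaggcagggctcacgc
Tgtp1: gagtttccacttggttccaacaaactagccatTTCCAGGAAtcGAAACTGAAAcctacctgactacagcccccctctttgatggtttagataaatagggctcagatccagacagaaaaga
Tgtp2: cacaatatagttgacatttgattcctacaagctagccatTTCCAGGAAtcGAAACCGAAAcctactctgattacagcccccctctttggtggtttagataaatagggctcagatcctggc
In each of the 5 the GAS match stood 2 bases before the ISRE match. These stretches lie at chr11:48927183-48927302 (minus strand), chr11:58199436-58199555 (plus strand), chr11:58214857-58214976 (plus strand), chr11:48992247-48992366 (minus strand) and chr11:49064213-49064332 (minus strand), all on chromosome 11. This combination (the GAS letters, any 2 bases and the ISRE letters, on either strand, within 250 bases before the start) was found upstream of 5 of 27025 genes (0.0185%), and these were the same 5 IRG genes. The arrangement was noticed after the sequences had been seen, and the 5 genes are paralogs whose upstream regions resemble each other. Windows of the IRG genes Irgm1, with 2 ISRE and 0 GAS matches, and Ifi47, with 0 of either, are not printed.

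The corresponding stretches of the antiviral genes Rsad2 (chr12:26456453-26456572, minus strand) and Ifit1 (chr19:34640769-34640888, plus strand) hold ISRE matches alone. The 250 bases of Cxcl10 (chr5:92348890-92349139, minus strand) hold a single ISRE match, 203 bases before the start.
Rsad2: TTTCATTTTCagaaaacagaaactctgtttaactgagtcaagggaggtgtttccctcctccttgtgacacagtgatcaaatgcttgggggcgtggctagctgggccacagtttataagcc
Ifit1: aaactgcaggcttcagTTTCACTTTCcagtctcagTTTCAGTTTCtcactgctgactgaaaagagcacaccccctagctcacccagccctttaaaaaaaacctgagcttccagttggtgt
Cxcl10: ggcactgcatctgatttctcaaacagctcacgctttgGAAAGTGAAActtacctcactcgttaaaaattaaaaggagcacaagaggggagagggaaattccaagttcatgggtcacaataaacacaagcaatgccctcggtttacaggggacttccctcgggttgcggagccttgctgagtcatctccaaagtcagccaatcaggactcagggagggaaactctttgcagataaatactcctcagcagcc
Over the 250 bases before the start, searched on both strands, an ISRE match was present in 19 of the 31 genes (61.3%) and in 3.46% of 27025 genes with a window. A GAS match was present in 11 of 31 (35.5%) and in 8.13% of all genes. Both were present in 9 of 31 and in 0.4% of all genes, namely in Gm12185, Igtp, Irgm2, Tgtp1, Tgtp2, Gbp5, Gbp7, Oas1a and Bst2. By role, ISRE matches stood before 6 of 7 IRG genes, 4 of 4 GBP genes, 5 of 7 antiviral effectors, 1 of 2 chemokines, 1 of 4 transcription factors, 2 of 2 modifiers and regulators, 0 of 2 RNA sensors and 0 of 3 other genes with a window. A match is a description of the letters and not a measured binding site.

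Levels are given as CPM, the reads of a gene scaled to a library of 1000000 reads on genes, with TMM normalization between mice. Reads on genes ranged from 15586333 to 109710886 per mouse in the Dnm2 cohort and from 24671835 to 35136327 in the Bin1 cohort. All 45 genes passed the filter on low counts in the Dnm2 cohort, and 44 did so in the Bin1 cohort, where Socs1 did not. The 8 fast-fiber markers, among them Ckm and Acta1, were detected in each mouse. One mouse stood apart from the other 15 of the Dnm2 cohort, namely Dnm2 S619L/+ placebo mouse 4, and results that rest on it are given with and without it. In bulk muscle, fewer cells of a type and less RNA per cell cannot be told apart.

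The IRG GTPases separated 1 mouse from the rest and, for some of them, the genotypes. Gm4841, an IRG-family gene, had 24.3, 17.9, 4.35 and 789.8 CPM in the 4 Dnm2 S619L/+ placebo mice and 2.25, 3.28, 2.45 and 1.497 CPM in the WT placebo mice. On tamoxifen, Gm4841 had 2.64, 2.15, 1.12 and 0.370 CPM in Dnm2 S619L/+ mice and 1.55, 0.420, 2.92 and 0.828 CPM in WT mice. All 4 Dnm2 S619L/+ placebo mice thus lay above the other 12 mice, but the fourth was 44.1-fold above the median of the first 3. Gm12185, a second IRG-family gene, had 5.07, 5.23, 3.44 and 133 CPM in Dnm2 S619L/+ placebo mice and 0.750, 0.396, 0.316 and 0.290 CPM in WT placebo mice. On tamoxifen its levels were 3.53, 1.28, 1.003 and 1.39 CPM in Dnm2 S619L/+ mice and 0.241, 0.300, 0.471 and 0.311 CPM in WT mice. For Gm12185 each Dnm2 S619L/+ mouse, treated or not, lay above each WT mouse, and the placebo and tamoxifen ranges of the Dnm2 S619L/+ mice overlapped through tamoxifen mouse 1.

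Igtp (Irgm3), an IRG protein of lipid droplets and vacuoles, had 13.2, 11.5, 11.7 and 217 CPM in Dnm2 S619L/+ placebo mice and 6.002, 6.45, 4.90 and 6.19 CPM in WT placebo mice. Iigp1, an effector that coats parasite vacuoles, had 17.4, 5.57, 7.65 and 484 CPM and 9.21, 9.06, 4.19 and 10.2 CPM in the same groups. Igtp was raised in all 4 Dnm2 S619L/+ placebo mice, whereas Iigp1 overlapped WT in mice 1 to 3 and stood out in mouse 4 alone. Irgm1 and Irgm2, the regulatory IRG proteins that guard the membranes of the cell itself, reached 176 and 335 CPM in mouse 4 against at most 30.8 and 25.1 CPM in the other 15 mice. Tgtp1, Tgtp2 and Ifi47 (Irg47), also IRG effectors, were 10.5-, 17.6- and 6.24-fold higher in mouse 4 than the median of mice 1 to 3. All 9 IRG genes were highest of the 16 mice in mouse 4. Tgtp1 and Tgtp2 are near-identical copies, and how their shared reads were divided is uncertain, as it may be for other close IRG and GBP relatives.

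**Figure D1:**
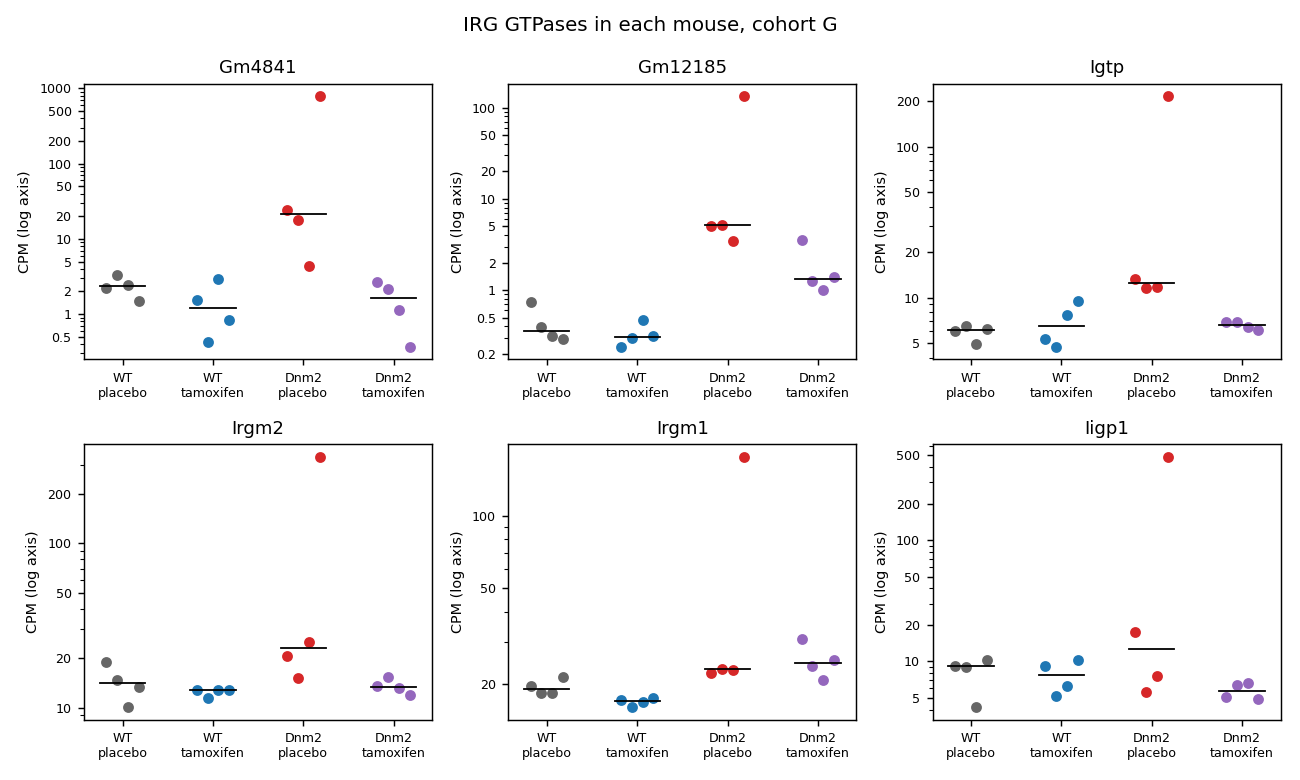
CPM (log axis) of Gm4841, Gm12185, Igtp, Irgm2, Irgm1 and Iigp1 in each of the 16 mice of the Dnm2 cohort by group; points are mice and lines are group medians. Dnm2 S619L/+ placebo mouse 4 is the top point in each panel, at 789.8 CPM for Gm4841 and 133 CPM for Gm12185.

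Outside the IRG genes, mouse 4 was raised to differing degrees. It was the highest of the 16 mice for 31 of the 45 genes (8.37% of all genes tested), over 2-fold above the median of mice 1 to 3 for 29 (6.28% of all genes), and over 5-fold for 17 (1.89% of all genes). The median ratio of mouse 4 to mice 1 to 3 was 2.88 over the 45 genes and 0.987 over all genes tested. The 45 genes were chosen with earlier results of these data in view, and Gm4841 and Gm12185 for high levels in this group. These counts and ratios are thus not independent of that choice. For the GBP genes the ratio ran from 1.62 for Gbp9 to 20.7 for Gbp6. Cxcl9 reached 56.6 CPM in mouse 4, 24.0-fold above the median of mice 1 to 3, and Cxcl10 6.65 CPM, 2.66-fold above it. Nlrc5, the transactivator of MHC class I genes, was 11.5-fold higher, Irf1, a first target of interferon gamma, 4.49-fold and Irf9 2.44-fold, whereas Irf7, a main regulator of type I interferon genes, and Stat2 were 1.47- and 1.64-fold higher. Stat2, at 20.7 CPM, was also highest in mouse 4, against at most 15.5 CPM in the other 15 mice, and Irf7 alone of the transcription factors lay within their range. Cxcl9, Nlrc5 and several GBP genes were thus raised beside the IRG genes.

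The antiviral effectors were split. Zbp1, a sensor of Z-form nucleic acid, was 10.2-fold higher in mouse 4, and Ifit3 2.88-fold, whereas Ifit1 (1.02-fold), Ifit2 (1.02-fold) and Rsad2, the antiviral enzyme viperin (1.31-fold), lay within the range of the other 15 mice. Ratios of the other effectors were 3.35 for Oas1a, 1.08 for Oas2, 1.78 for Oasl2, 6.50 for Mx1, 0.582 for Mx2 and 2.00 for Bst2 (tetherin). The RNA sensors Ifih1 (MDA5) and Ddx58 (RIG-I) were 2.21- and 1.44-fold higher. The ubiquitin-like modifier Isg15, its protease Usp18 and the kinase inhibitor Socs1 had ratios of 1.60, 1.99 and 4.08. Among the other interferon-induced genes the ratios ran from 1.26 to 3.30.

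Grouped by promoter letters, the ratio of mouse 4 to mice 1 to 3 was 2.00 to 26.3 with a median of 10.5 for the 9 genes with both matches. It was 1.02 to 7.67 with a median of 2.77 for the 10 genes with an ISRE match alone, Rsad2 and Ifit1 included. For the 10 genes with neither it was 1.26 to 24.0 with a median of 1.83, and Irf1 and Ifit2, with a GAS match alone, were 4.49- and 1.02-fold. The classes overlapped, and 5 of the 9 genes with both matches are the IRG paralogs shown above. Gm12185, which holds the ratio of 26.3, had been chosen for its high level in the Dnm2 S619L/+ placebo mice. The IRG genes Irgm1, with ISRE matches alone, and Ifi47, with neither, were 7.67- and 6.24-fold.

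**Figure D2:**
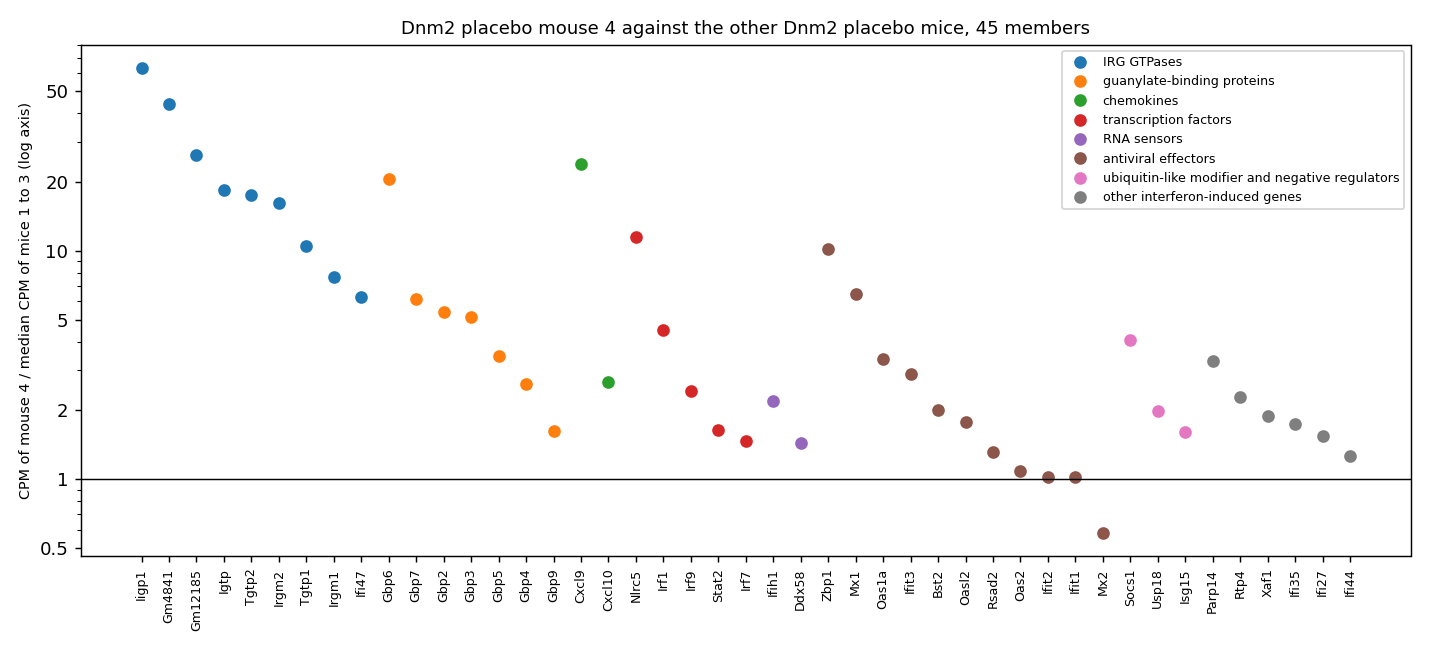
Ratio of the CPM in Dnm2 S619L/+ placebo mouse 4 to the median of placebo mice 1 to 3 (log axis) for each of the 45 genes, ordered by role. Ratios run from 0.582 among the antiviral effectors to 63.3 for Iigp1, and all 9 IRG genes exceed 5-fold.

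Markers of several immune cell types, but not of neutrophils, moved with these genes in mouse 4. The summed level of 8 T cell markers, among them Cd3e and Cd8a, was 42.3 CPM in mouse 4 and 0.474 to 12.7 CPM in the other 15 mice, and all 8 were highest in mouse 4. All 8 NK cell markers were highest there too, with a sum of 10.3 CPM against 0 to 1.15 CPM, as were all 5 B cell markers (5.70 against 0.311 to 2.06 CPM). Dendritic cell markers summed to 38.4 against 8.86 to 13.8 CPM, with 5 of 7 highest in mouse 4, and macrophage markers to 441 against 79.1 to 415 CPM, with 6 of 10 highest. Markers of neutrophils and marrow summed to 0.435 against 0.345 to 6.50 CPM, with 1 of 8 highest and 3 at 0 in mouse 4. The 6 endothelial markers were lower in mouse 4, at 190.2 against 215 to 751 CPM, and 0 of these T, NK, B, dendritic, macrophage and endothelial markers were at 0 in mouse 4. The part of these cells in the levels of the 45 genes was not tested.

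Other genes of the interferon pathway were raised in mouse 4 as well. The 9 genes of interferon-induced antigen processing were all highest in mouse 4 and summed to 1195 against 172 to 294 CPM. B2m, the light chain of MHC class I, had 856 against 86.8 to 182 CPM, Tap1, the peptide transporter, 45.3 against 3.004 to 6.24 CPM, and Psmb9, an immunoproteasome subunit, 19.7 against 0.712 to 3.12 CPM. None of the 6 receptor genes was itself highest in mouse 4, but their summed level was, at 186 against 139 to 183 CPM. Negative regulators summed to 167 against 94.5 to 159.9 CPM, with 2 of 9 highest in mouse 4, and nucleic acid sensors and adaptors to 117 against 95.1 to 121 CPM, with 4 of 12 highest. These sums thus stood little above or within the range of the other mice, whereas that of antigen processing stood far above it. The 10 IRG and GBP relatives outside the 45 genes summed to 140.5 against 2.45 to 10.3 CPM, and 17 of 36 other interferon-stimulated genes were highest there. Among the ligands, Ifng had 6 reads in mouse 4 and 0 in each of the other 27 mice, where a count of 0 allows up to 3 reads per mouse. Ifnb1, Ifnk, Ifne, Ifna1, Ifna2, Ifna4, Ifna5, Ifnl2 and Ifnl3 had 0 reads in all 28 mice.

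**Figure D3:**
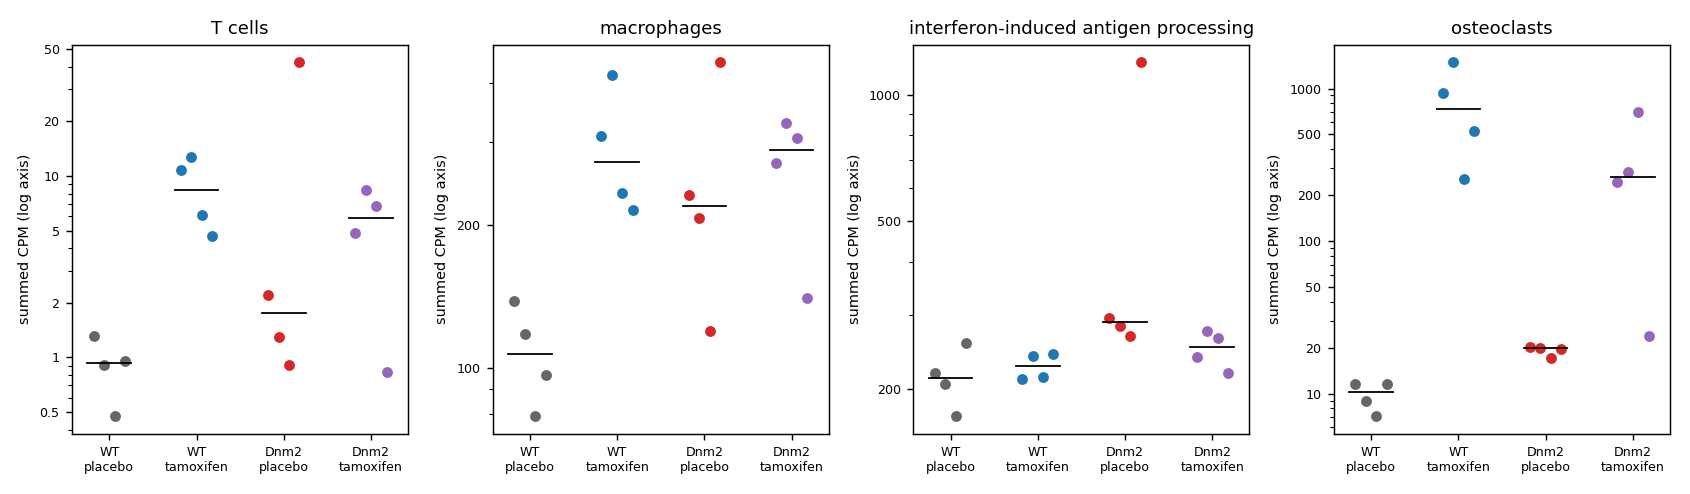
Summed CPM (log axis) of the marker lists of T cells, macrophages, antigen processing and osteoclasts in each of the 16 mice of the Dnm2 cohort by group. Dnm2 S619L/+ placebo mouse 4 holds the highest T cell (42.3 CPM) and antigen processing (1195 CPM) sums, while the osteoclast sum is 257 to 1485 CPM in WT tamoxifen mice and 7.12 to 11.6 CPM in WT placebo mice.

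The contrast of Dnm2 S619L/+ with WT mice on placebo, in which the genes were chosen, looked different with and without mouse 4. The log2 fold change was above 0 for 33 of the 45 genes, with a median of 0.45 against 0.024 over all genes. Without mouse 4 the median was -0.061, and 19 genes lay above 0. In all 4 mice, 8 genes were higher than in each WT placebo mouse, while 14.3% of all genes were. They were Gm4841, Gm12185, Igtp, Irgm1, Cxcl10, Socs1, Ifi27 and Ifi35. Mice 1 to 3 by themselves lay above WT for the same 8 genes, 17.8% of the 45 against 16.8% of all genes.

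The 6 highest log2 fold changes of this contrast belonged to Gm4841 (6.44), Gm12185 (6.08), Cxcl10 (4.90), Iigp1 (3.94), Igtp (3.40) and Gbp6 (3.04). Cxcl10 had 1.58, 2.496, 3.44 and 6.65 CPM in the Dnm2 S619L/+ mice and 0.0912, 0.0849, 0 and 0.0223 CPM in WT mice, from 366 and 13 reads over the groups. Gbp6 had 0.879, 0.144, 0.724 and 14.96 CPM and 0.618, 0.453, 0.158 and 0.447 CPM. Cxcl10 was thus raised in each Dnm2 S619L/+ mouse, whereas Gbp6 was low in both groups apart from mouse 4. Ifi35, an interferon-induced leucine zipper protein, had 15.1, 19.5, 19.1 and 33.2 CPM against 10.7, 10.7, 9.96 and 8.91 CPM, and Ifi27 27.2 to 44.3 against 17.5 to 22.8 CPM. These 2 genes, with Irgm1 (22.3 to 176 against 18.3 to 21.4 CPM), lay above WT without overlap in mice 1 to 3 as well.

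The 6 lowest log2 fold changes were those of Rsad2 (-0.89), Gbp9 (-0.70), Ifit2 (-0.45), Ifit1 (-0.19), Oas1a (-0.19) and Ifi44 (-0.14). Rsad2 had 8.52, 4.18, 11.2 and 11.2 CPM in Dnm2 S619L/+ mice and 16.3, 9.56, 7.83 and 31.2 CPM in WT mice. Gbp9 had 8.66, 5.14, 12.0 and 14.0 CPM and 19.8, 14.3, 9.09 and 20.8 CPM. For both, the groups overlapped, and the WT range was wide. Ifit2 had 4.62, 3.70, 5.43 and 4.71 against 6.96, 5.55, 3.48 and 8.96 CPM, and Ifit1, which binds viral RNA caps, 2.84, 2.11, 3.17 and 2.89 against 4.03, 3.23, 0.949 and 3.998 CPM. Oas1a, an activator of RNase L, had 0.248, 0.240, 0.634 and 0.831 against 0.598, 0.396, 0.158 and 0.916 CPM, and Ifi44 1.92, 1.34, 3.58 and 2.41 against 3.46, 1.61, 0.791 and 3.93 CPM. In none of the 6 did the groups separate, and the lowest of the 8 values belonged to a WT mouse for Ifit1, Ifit2, Oas1a and Ifi44. Markers of other cells moved with this contrast too. All 10 macrophage markers had log2 fold changes above 0, with a median of 1.25 and sums of 119.7 to 441 CPM in Dnm2 S619L/+ mice against 79.1 to 138 CPM in WT mice. The median was 1.83 for the 5 tendon markers (256 to 486 against 47.4 to 242 CPM) and -0.92 for the 6 endothelial markers (190.2 to 494 against 391 to 751 CPM). T cell markers summed to 0.905 to 42.3 against 0.474 to 1.31 CPM, with medians of 1.75 and 0.933 CPM. The 42.3 CPM was that of mouse 4. The part of these cells in the contrast was not tested.

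Tamoxifen was compared with placebo in Dnm2 S619L/+ mice to learn which of the raised genes differed on the drug. Igtp, Iigp1, Irgm2, Gbp6, Cxcl9 and Ifi35 fell, 6 of the 43 genes that could be tested, and 0 rose (edgeR's quasi-likelihood test with Benjamini-Hochberg adjustment over all genes, adjusted p under 0.05). Of all genes, 8.27% were called in either direction and 3.05% fell. Gm4841 and Gm12185 had log2 fold changes of -7.01 and -4.29, given without a test since the same placebo mice chose them. This contrast shares those mice, mouse 4 included, with the untested one above. The 43 genes were also chosen with earlier results of these data in view. Their calls, and the share called, are thus not independent of that choice.

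Igtp had 6.87, 6.90, 6.34 and 6.14 CPM on tamoxifen, each below the 11.5 to 217 CPM of the placebo mice (log2 change of -3.26 ± 0.81 (SE), adjusted p = 0.0243 by edgeR). Ifi35 had 13.5, 12.99, 9.59 and 10.99 CPM, each below the 15.1 to 33.2 CPM on placebo (log2 change of -0.88 ± 0.20 (SE), adjusted p = 0.0154 by edgeR). Cxcl9 had 1.26, 1.08, 1.204 and 1.54 CPM against 3.81, 1.87, 2.35 and 56.6 CPM (log2 change of -3.60 ± 0.89 (SE), adjusted p = 0.0244 by edgeR). In these 3 genes the tamoxifen mice lay below all placebo mice, mice 1 to 3 included. Iigp1 had 5.09, 6.42, 6.70 and 4.91 CPM against 5.57 to 484 CPM (log2 change of -4.47 ± 1.16 (SE), adjusted p = 0.0309 by edgeR). Irgm2 had 13.5, 15.4, 13.1 and 11.9 CPM against 15.2 to 335 CPM (log2 change of -2.87 ± 0.77 (SE), adjusted p = 0.0347 by edgeR). Gbp6 had 0.368, 0.159, 0.281 and 0.586 CPM against 0.144 to 14.96 CPM (log2 change of -3.35 ± 0.99 (SE), adjusted p = 0.0483 by edgeR). For Iigp1, Irgm2 and Gbp6 the ranges overlapped, with placebo mice 1 to 3 at 17.4, 5.57, 7.65 CPM of Iigp1, 20.7, 15.2, 25.1 CPM of Irgm2 and 0.879, 0.144, 0.724 CPM of Gbp6. Without mouse 4 the fold changes were smaller. Igtp was still called (log2 change of -0.88, adjusted p = 0.0253 by edgeR), as was Ifi35 (log2 change of -0.60, adjusted p = 0.0370 by edgeR). The log2 changes of Cxcl9, Iigp1, Irgm2 and Gbp6 were then -1.06, -0.83, -0.59 and -0.68, without a call (edgeR adjusted p = 0.0625, 0.175, 0.0743 and 0.438).

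Of all 45 genes, 37 had a log2 fold change below 0, with a median of -0.67 against -0.031 over all genes, and 19 of the 43 tested had an unadjusted p under 0.05, as did 25.4% of all genes. The tamoxifen and placebo mice did not overlap for Gm4841, Igtp, Cxcl9, Ifih1 and Ifi35, all lower on tamoxifen, while 6.37% of all genes did so. The GBP genes ranged from -3.35 to 0.050, the transcription factors from -1.97 to -0.15, the antiviral effectors from -2.24 to 0.20 and the modifiers and regulators from -0.54 to 0.88 in log2 fold change, with 1, 0, 0 and 0 called. Without mouse 4, 2 genes were called (4.91% of all genes). With 1 mouse left out at a time, the call of Gbp6 was lost in 12 of 16 fits, those of Iigp1 and Irgm2 in 5 of 16 each, and those of Cxcl9, Igtp and Ifi35 in 4 of 16, 3 of 16 and 1 of 16. The Gbp6 call thus did not hold when most of the mice were left out in turn, mouse 4 among them. Fitted by themselves, the 8 mice of these groups gave 0 calls by edgeR (9 genes at an unadjusted p under 0.05, where 20.4% of all genes were, and 0.21% of all genes called), while DESeq2 on all mice called 7 (12.2% of all genes), Gbp6 and Ifi35 among them, and gave no adjusted p for Igtp, Irgm2, Iigp1 and Cxcl9. The calls of these 4 genes were thus not kept by DESeq2. Leaving out tamoxifen mouse 1 or 2 left Ifi35 alone, and leaving out tamoxifen mouse 3 left 0 calls.

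In the pathway lists, 3 of the 5 tested relatives of the IRG, GBP and Ifit genes fell. They were F830016B08Rik, an IRG-family gene (0.401 to 0.682 CPM on tamoxifen against 2.85 to 105 CPM on placebo, log2 change of -5.53, adjusted p = 0.0107 by edgeR), Gbp10 (log2 change of -4.03, adjusted p = 0.0107 by edgeR) and Ifit3b (log2 change of -1.57, adjusted p = 0.00707 by edgeR). Without mouse 4 all 3 were still called, with log2 changes of -2.83, -2.10 and -1.13. Psmb10, an immunoproteasome subunit, fell as 1 of 9 antigen processing genes, with 8.49 to 11.002 CPM against 12.2 to 50.2 CPM (log2 change of -1.27, adjusted p = 0.0405 by edgeR). Its call was lost in 10 of 16 fits with 1 mouse left out, that without mouse 4 among them (log2 change of -0.55, adjusted p = 0.0718 by edgeR). Among the 6 receptor genes, Ifngr2 fell (log2 change of -0.39, adjusted p = 0.0158 by edgeR) and Ifnlr1, a chain of the type III interferon receptor, rose (log2 change of 2.17, adjusted p = 0.0445 by edgeR). The Ifnlr1 call was lost in 12 of 16 fits with 1 mouse left out, with log2 changes of 1.58 to 2.41 over the 16, and the Ifngr2 call in 2 of 16. None of 10 signal transducers, 12 sensors and adaptors, 8 negative regulators and 35 other interferon-stimulated genes tested was called. T cell marker sums were 0.833 to 8.41 CPM on tamoxifen (median 5.87) and 0.905 to 42.3 CPM on placebo (median 1.75), with 0 to 2 and 0 to 1 of the 8 markers at 0 per mouse. Macrophage sums were 140.5 to 329 CPM (median 288) and 119.7 to 441 CPM (median 219). The highest placebo sum of both lists was that of mouse 4. Osteoclast markers summed to 23.9 to 706 CPM on tamoxifen and 17.1 to 20.1 CPM on placebo, with 4 of 6 up. The part of these cells in the result was not tested.

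The genotypes were then compared in mice that all received tamoxifen. Cxcl10 was higher in Dnm2 S619L/+ mice and was the only one of the 45 genes called, where 2.7% of all genes were called. Its levels were 0.828, 1.67, 2.17 and 1.51 CPM in Dnm2 S619L/+ mice and 0.261, 0.240, 0.235 and 0.0345 CPM in WT mice, without overlap (log2 change of 2.65 ± 0.49 (SE), adjusted p = 0.00778 by edgeR). Over each group these came from 172 and 27 reads, a depth-scaled ratio of 7.38 (95% exact interval 4.90 to 11.5, counting error only). Cxcl10 passed the filter on low counts through the Dnm2 S619L/+ mice, in which it was high. Its call is thus not independent of that filter.

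Gm12185 had 1.80 ± 1.16 CPM (SD, n = 4) in Dnm2 S619L/+ mice on tamoxifen and 0.331 ± 0.0983 CPM (SD, n = 4) in WT mice, and did not overlap, but did not pass the test (log2 change of 2.33 ± 1.13 (SE), adjusted p = 0.296 by edgeR). Irgm1 likewise did not overlap, with 30.8, 23.7, 20.7 and 25.2 CPM against 17.3, 16.02, 16.9 and 17.4 CPM (log2 change of 0.57 ± 0.53 (SE), adjusted p = 0.602 by edgeR). Both were called when mouse 4, which is in neither group but shares the estimate of spread, was left out (edgeR adjusted p = 0.00596 and 0.00966), where 2.62% of all genes were called, and when the 8 mice were fitted alone (1.99%). Gm12185 passed the filter on low counts through Dnm2 S619L/+ mice, and had been chosen for its high level in those on placebo. Its calls in these fits are thus not independent of the filter or of that choice. Of the 45 genes, Cxcl10, Gm12185 and Irgm1 lay fully above WT (6.37% of all genes), and Stat2 fully below it (4.31% of all genes). Gm4841, in contrast, had 1.57 ± 1.02 CPM (SD, n = 4) against 1.43 ± 1.097 CPM (SD, n = 4), and the groups overlapped (log2 change of 0.18 ± 1.34 (SE), adjusted p = 0.962 by edgeR). Log2 fold changes were above 0 for 22 genes and below 0 for 23, with a median of -0.037 against -0.025 over all genes. No gene of the pathway lists was called, and the Cxcl10 call was lost under the study's own count filter, under which Cxcl10 was not among the genes tested (2.57% of all genes called). Macrophage markers summed to 140.5 to 329 CPM in Dnm2 S619L/+ and 216 to 415 CPM in WT mice on tamoxifen, and T cell markers to 0.833 to 8.41 and 4.69 to 12.7 CPM, and their part in the result was not tested.

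**Figure D4:**
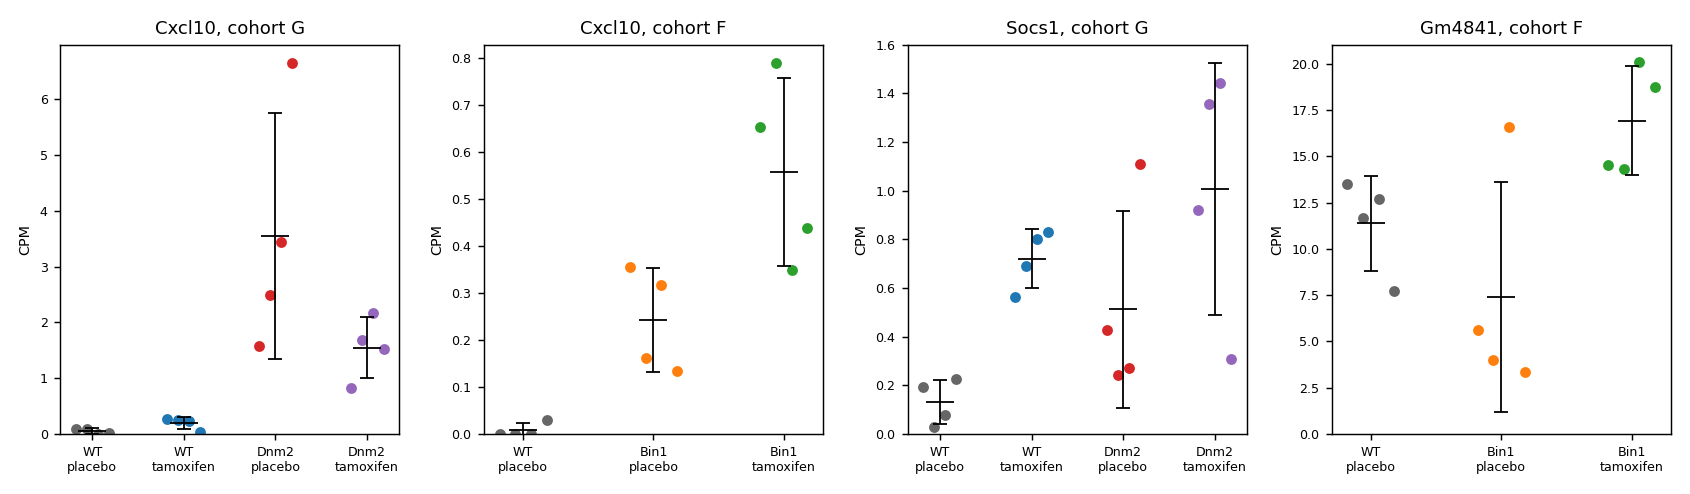
CPM of Cxcl10 in both cohorts, Socs1 in the Dnm2 cohort and Gm4841 in the Bin1 cohort; points are mice, with the mean and SD of each group of 4. Cxcl10 is higher in each Dnm2 S619L/+ mouse than in each WT mouse on the same diet and higher in each Bin1 mck-/- placebo mouse than in each WT mouse.

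In WT mice, tamoxifen was compared with placebo to see what the drug did without the mutation. Socs1, the feedback inhibitor of Janus kinases, rose and was the only one of the 45 genes called, whereas 27.7% of all genes were. Socs1 had 0.563, 0.690, 0.800 and 0.828 CPM on tamoxifen and 0.193, 0.0283, 0.0791 and 0.223 CPM on placebo, without overlap (log2 change of 1.92 ± 0.50 (SE), adjusted p = 0.0109 by edgeR). The placebo levels were low, and Socs1 passed the filter on low counts through other groups, the WT tamoxifen mice included. Its call is thus not independent of that filter. The other genes did not pass, and 35 of the 45 had a log2 fold change below 0, with a median of -0.24 against -0.037 over all genes. The GBP genes ranged from -0.93 to -0.15 and the IRG genes from -0.75 to 0.19. Gm4841 had 1.43 ± 1.097 against 2.37 ± 0.734 CPM (SD, n = 4 each), and Gm12185 0.331 ± 0.0983 against 0.438 ± 0.213 CPM (SD, n = 4 each). Irgm1 and Ifih1 lay fully below placebo without being called (13.8% of all genes did), and Socs1 fully above (17.6%). Fitted on these 8 mice alone, Gbp5, Gbp7 and Ifit3 were also called, lower on tamoxifen (28.7% of all genes called), and the study's own count filter left Socs1 untested. Whether the response to tamoxifen differed between WT and Dnm2 S619L/+ mice was not tested.

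Other genes of the pathway were called on tamoxifen in WT mice, where 15.8% of all genes rose and 11.9% fell. Among nucleic acid sensors and adaptors 4 of 12 rose and 1 fell. Calls among the signal transducers (3 of 10) and receptors (2 of 6) were near the share of all genes called, and are given for the genes themselves. Ikbke, a kinase that activates interferon regulatory factors, had 3.69 to 6.39 CPM on tamoxifen and 1.25 to 1.75 CPM on placebo (log2 change of 1.80, adjusted p = 0.00192 by edgeR). Myd88, the adaptor of Toll-like receptors, rose (log2 change of 0.78, adjusted p = 0.00905 by edgeR), as did the DNA sensor Cgas and the adaptor Ticam1, while Mavs, the adaptor of the RNA sensors, fell (log2 change of -0.38, adjusted p = 0.00272 by edgeR). Among the signal transducers, Jak1 and Jak2 fell (log2 change of -0.46, adjusted p = 0.00313 by edgeR, and log2 change of -0.75, adjusted p = 0.00201 by edgeR) and Irf2bp2 rose (log2 change of 0.61, adjusted p = 0.0409 by edgeR), a call lost in 6 of 16 fits with 1 mouse left out. Ifnar1 rose (log2 change of 0.53, adjusted p = 0.0109 by edgeR) and Ifngr2 fell (log2 change of -0.28, adjusted p = 0.0277 by edgeR), the latter without a call in 6 of 16 such fits. Il18, a cytokine that elicits interferon gamma, rose (log2 change of 1.36, adjusted p = 0.0235 by edgeR), a call lost without WT tamoxifen mouse 1 (edgeR adjusted p = 0.0671). Cish, a STAT5 target, fell (log2 change of -2.77, adjusted p = 0.0317 by edgeR), but its call was lost in 5 of 16 fits, and without WT placebo mouse 1 its difference was much smaller (log2 change of -0.73, adjusted p = 0.412 by edgeR). Ifit3b fell as well, and Isg20 and Ifi204 were the 2 of 35 other interferon-stimulated genes that rose, with calls lost in 4 of 16 and 5 of 16 fits. In these mice macrophage markers rose (8 of 10, summed 216 to 415 against 79.1 to 138 CPM) and T cell markers summed to 4.69 to 12.7 against 0.474 to 1.31 CPM, with 0 to 3 of 8 at 0 per mouse against 0 to 5. Osteoclast markers (5 of 6 up, 257 to 1485 against 7.12 to 11.6 CPM), osteoblast markers (6 of 7 up) and tendon markers (5 of 5 up) were also raised in the tamoxifen-treated libraries. Their part in the result was not tested.

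In the Bin1 cohort, Bin1 mck-/- muscle was compared with WT muscle on placebo. Cxcl10 was again the only one of the 44 genes called, and it rose, where 2.61% of all genes were called. It had 0.355, 0.161, 0.316 and 0.133 CPM in Bin1 mck-/- mice and 0, 0, 0 and 0.0301 CPM in WT mice (log2 change of 2.08 ± 0.44 (SE), adjusted p = 0.0267 by edgeR). The counts behind it were low, with 32 reads over the 4 Bin1 mck-/- mice and 1 over the 4 WT mice, a depth-scaled ratio of 30.8 (95% exact interval 5.14 to 1254, counting error only). Leaving out 1 mouse at a time, 7 of 12 fits no longer called Cxcl10, those without Bin1 mck-/- placebo mouse 1, 2 or 4 or any WT mouse. In the whole cohort Cxcl10 passed the filter on low counts through Bin1 mck-/- mice, those on tamoxifen included. Its call is thus not independent of that filter. A fit of these 8 mice alone did not test Cxcl10, whose counts were below its filter, and called Gbp5, lower (10.1% of all genes called).

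Gm4841 had 5.59, 3.99, 16.6 and 3.33 CPM in Bin1 mck-/- placebo mice and 13.5, 11.7, 12.7 and 7.71 CPM in WT mice. Bin1 mck-/- mouse 3 alone reached above the WT range, the other 3 lay below it, and the difference did not pass (log2 change of -0.62 ± 0.44 (SE), adjusted p = 0.471 by edgeR). Gm12185 was low in all, with 0.888, 0.483, 0.665 and 0.772 CPM and 0.196, 0.626, 0.416 and 0.663 CPM. Without mouse 3, Gm4841 was lower in Bin1 mck-/- mice (log2 fold change -1.40, adjusted p = 0.00409 by edgeR). The median log2 fold change was -0.11 over the 44 genes and 0.0080 over all genes, with 18 above 0 and 26 below. Zbp1 (0.451 to 1.09 against 0.174 to 0.391 CPM) and Ifi27 (28.6 to 37.8 against 26.2 to 28.3 CPM) lay fully above WT, as did Cxcl10 (9.09% of all genes), and Gbp5 (2.81 to 4.27 against 4.59 to 6.11 CPM) fully below (7.46%). IRG genes ranged from -0.63 to 0.51 and antiviral effectors from -0.24 to 1.14, with 0 called in either group. In the pathway lists Jak2 fell (log2 change of -0.69, adjusted p = 0.0201 by edgeR), and Ptpn6 (Shp1, log2 change of 1.51, adjusted p = 0.0382 by edgeR) and Ifi204 (log2 change of 1.48, adjusted p = 0.0345 by edgeR) rose. With 1 mouse left out these calls were lost in 6 of 12, 7 of 12 and 6 of 12 fits. Macrophage markers summed to 185 to 366 against 61.9 to 97.6 CPM, with 3 of 10 up, and T cell markers to 0.547 to 2.07 against 0.640 to 1.08 CPM, and their part in the result was not tested.

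Tamoxifen in Bin1 mck-/- mice left the genes without a call by edgeR, where 3.13% of all genes were called. Gm4841, Irf9, Oas2 and Ddx58 had an unadjusted p under 0.05, as did 20.7% of all genes, and DESeq2 called 1 gene, Gm4841 (8.43% of all genes). Gm4841 had 14.5, 14.3, 20.1 and 18.8 CPM on tamoxifen against 5.59, 3.99, 16.6 and 3.33 CPM on placebo (log2 change of 1.19 ± 0.44 (SE), adjusted p = 0.160 by edgeR), overlapping through placebo mouse 3. Without that mouse Gm4841 rose (log2 fold change 1.96, adjusted p = 0.000756 by edgeR). Gm12185 had 0.479, 0.303, 0.660 and 0.402 CPM on tamoxifen against 0.888, 0.483, 0.665 and 0.772 CPM on placebo, and Cxcl10 0.654, 0.789, 0.349 and 0.439 against 0.355, 0.161, 0.316 and 0.133 CPM, both without a call. The median log2 fold change was -0.055 over the 44 genes and -0.00066 over all genes, and the IRG genes ranged from -0.55 to 1.19 and the antiviral effectors from -0.89 to 0.45. Tamoxifen mouse 2 was the highest of the 12 mice for 13 of the 44 genes (9.55% of all genes). No gene of the interferon pathway lists was called.

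**Figure D5:**
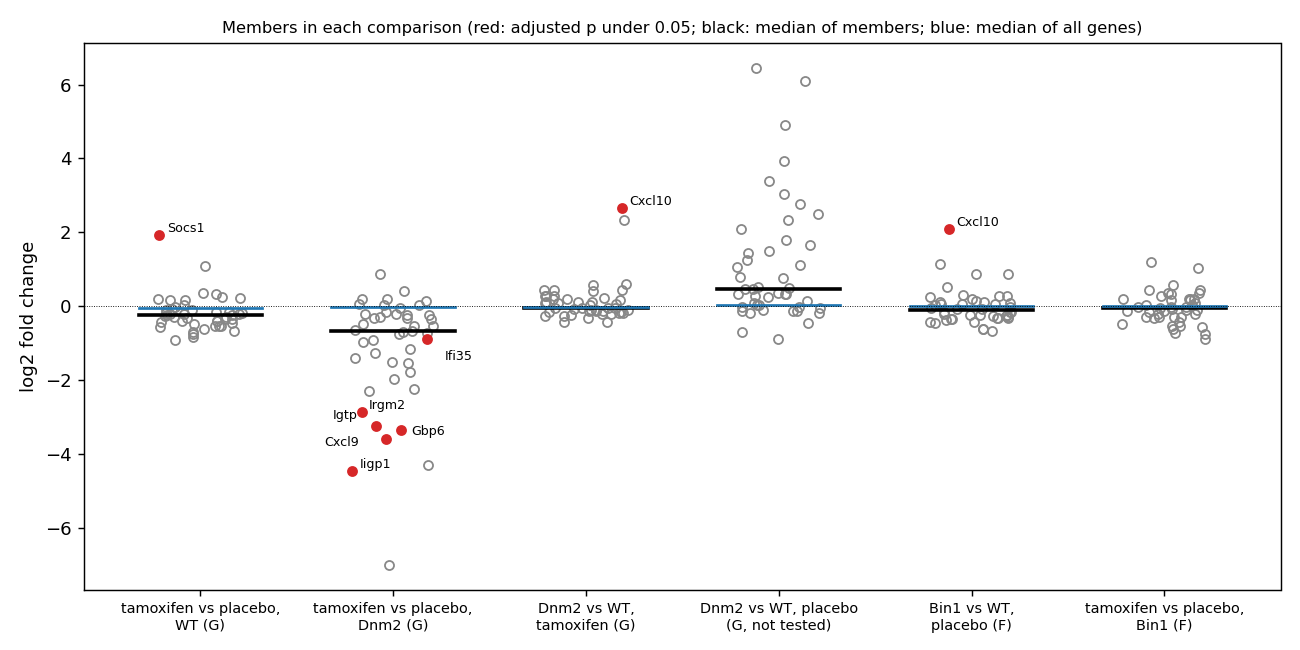
Log2 fold changes (y axis) of the interferon-inducible genes in the 6 comparisons; each point is a gene, red where edgeR's adjusted p was under 0.05, the black bar is their median and the blue bar the median of all genes tested. The median is lowest for tamoxifen in Dnm2 S619L/+ mice, at -0.67, and highest for Dnm2 S619L/+ against WT on placebo, at 0.45, where no test was made.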

How the data were processed

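Per the labels and the study's methods, polyA RNA of mouse TA muscle was made into stranded libraries and sequenced, and the submitters' processing notes name bcl2fastq 2.20.0.422, cutadapt 1.10, Bowtie 1.2.2, STAR 2.5.3, HTSeq 0.6.1p1 and the build mm39. The authors deposited raw read counts per Ensembl gene and mouse, 1 table per cohort. The table of the Bin1 cohort also held lines naming no gene, 22.0% to 30.8% of counts per mouse, which were left out of library sizes. Gene symbols came from GENCODE M21, which named 52083 of 55416 identifiers, so promoter windows (GRCm38.p6) were joined by symbol and no coordinates were mixed.

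Counts of each cohort were filtered with filterByExpr, normalized by TMM and fitted with the robust quasi-likelihood model of edgeR 4.0.16 (R 4.3.3, limma 3.58.1) with group as the only term, which left 15439 genes in the Dnm2 cohort and 14841 in the Bin1 cohort. A gene was called at a Benjamini-Hochberg adjusted p under 0.05 over all genes tested. Alternatives were DESeq2 1.42.0, RLE normalization, no filter, the study's filter, only the groups compared, a replicate block and leaving out each mouse. The fit was tested on simulated data. Results of a further pathway gene are not reported here. The 45 genes and all gene lists were chosen with earlier results of these data known. Values per mouse are given for Gm4841, Gm12185 and up to 6 called genes per tested comparison and direction by smallest adjusted p, for the 6 largest fold changes each way in the untested contrast, and for up to 3 called genes per pathway list; called genes beyond this are named without values, and genes whose groups did not overlap are named as well. Libraries ranged from 15586333 to 109710886 reads on genes in the Dnm2 cohort, so levels are least precise in the shallowest. Replicate numbers did not pair mice across groups. No 2 mice of a group differed by as little as sampling noise. Intervals on read ratios cover counting error only.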

Additional observations from a re-analysis of the deposited data

Results flagged for a closer look

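A mouse was singled out where its gap to the nearest of the other 3 mice of its group, divided by the range of the group, was above Dixon's 95% limit, for each of the interferon-inducible genes in each group. Chance gives this in about 1 in 20 groups where values are independent and normally distributed. Whether that rate holds for CPM of related genes in the same mice was not tested. The limit was passed in 33 of 312 groups of 4. Of these, 20 were Dnm2 S619L/+ placebo mouse 4, each time as the highest of its group. Among the IRG GTPases it was Gm4841 (789.8 CPM), Gm12185 (133 CPM), Igtp (217 CPM), Irgm1 (176 CPM), Irgm2 (335 CPM), Iigp1 (484 CPM), Tgtp2 (11.2 CPM) and Ifi47 (10.1 CPM). Gm4841 and Gm12185 had been chosen for high levels in this group, so their flags are not independent of that choice. Among the GBP genes and chemokines it was Gbp2 (61.1 CPM), Gbp3 (35.7 CPM), Gbp6 (14.96 CPM), Gbp7 (57.3 CPM) and Cxcl9 (56.6 CPM). Among the other genes it was Irf1 (37.8 CPM), Irf9 (24.5 CPM), Nlrc5 (26.5 CPM), Ifit3 (8.43 CPM), Mx1 (1.46 CPM), Zbp1 (7.84 CPM) and Ifih1 (14.0 CPM). The summed T cell, NK cell and B cell markers were highest of the 16 mice in the same mouse, and their part in these values was not tested.

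The other 13 fell on 11 mice. In the Dnm2 cohort they were Gm12185 in Dnm2 S619L/+ tamoxifen mouse 1 (3.53 CPM, the highest of 4), Irgm2 in WT tamoxifen mouse 2 (11.4 CPM, the lowest of 4), Cxcl9 in WT tamoxifen mouse 4 (1.001 CPM, the lowest of 4), Cxcl10 in WT tamoxifen mouse 4 (0.0345 CPM, the lowest of 4), Stat2 in Dnm2 S619L/+ tamoxifen mouse 4 (9.29 CPM, the lowest of 4), Stat2 in WT tamoxifen mouse 1 (15.4 CPM, the highest of 4) and Mx1 in Dnm2 S619L/+ tamoxifen mouse 3 (0.883 CPM, the highest of 4). In the Bin1 cohort they were Gm4841 in Bin1 mck-/- placebo mouse 3 (16.6 CPM, the highest of 4), Tgtp2 in Bin1 mck-/- tamoxifen mouse 2 (1.76 CPM, the highest of 4), Cxcl10 in WT placebo (Bin1 cohort) mouse 8 (0.0301 CPM, the highest of 4), Ifit1 in Bin1 mck-/- tamoxifen mouse 3 (1.75 CPM, the lowest of 4), Oasl2 in Bin1 mck-/- placebo mouse 1 (3.99 CPM, the lowest of 4) and Isg15 in Bin1 mck-/- placebo mouse 1 (1.21 CPM, the lowest of 4). The Cxcl10 value of WT placebo mouse 8 stands for 1 read, with 0 reads in the other 3 mice of the group.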

How the results depend on the processing

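Over the 35 values of single genes named from a test, RLE normalization kept the direction and the side of the threshold of all 35, and no alternative reversed one. Calls were lost for 12 of 35 without a filter on low counts, for 13 of 33 (with 2 gained) with only the groups compared, for 12 of 29 with the replicate block and in 107 of 536 comparisons (with 4 gained) with 1 mouse left out. The study's filter tested 27 and changed no call among them, and DESeq2, which gave an adjusted p for 27, gained 1. Genes without an adjusted p by DESeq2 are not counted here. Igtp, Irgm2, Iigp1 and Cxcl9 on tamoxifen in Dnm2 S619L/+ mice were among them. Tamoxifen in Dnm2 S619L/+ mice, 6 genes called, was the result that moved most. It called 1 gene without a filter (Ifi35), 0 with only the groups compared, 1 with the replicate block (Ifi35, with 5.46% of all genes called against 8.27%), and 0 to 9 with 1 mouse left out: 2 without placebo mouse 4, 1 without tamoxifen mouse 1 or 2 and 0 without tamoxifen mouse 3. DESeq2 called 7 (Gbp3, Gbp6, Gbp7, Ifi35, Nlrc5, Tgtp2 and Zbp1). Tamoxifen in WT mice, 1 gene called, gave 0 under the study's filter, where Socs1 was not tested, 4 with only the groups compared, and 1 to 4 with 1 mouse left out (4 without Dnm2 S619L/+ placebo mouse 4: Cxcl9, Gbp7 and Ifih1, lower, and Socs1, and 2 without WT tamoxifen mouse 4: Cxcl10 and Socs1). Dnm2 S619L/+ against WT on tamoxifen, 1 called, gave 0 under the study's filter, 3 with only the groups compared and, with mouse 4 of the Dnm2 S619L/+ placebo group as the only one that mattered, 1 to 3 with 1 mouse left out. Bin1 mck-/- against WT, 1 called, gave 0 under the study's filter and 0 to 2 with 1 mouse left out. Tamoxifen in Bin1 mck-/- mice, 0 called, gave 1 by DESeq2 (Gm4841) and 0 to 1 with 1 mouse left out (Gm4841 without placebo mouse 3, Ddx58 without tamoxifen mouse 2). The median of the untested contrast was 0.45, changed sign to -0.061 without Dnm2 S619L/+ placebo mouse 4, and ranged from -0.061 to 0.62 with 1 mouse left out. Except where a mouse or filter is named, the cause was not tested.

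Same-numbered mice of different groups did not deviate together (correlations of -0.32 to 0.33 over 24 pairs in the Dnm2 cohort and -0.18 to 0.15 over 4 pairs in the Bin1 cohort), with 5 of 16 and 2 of 8 mice correlating best with a mouse of their own number, and the block changed no other count of the 45 genes. No block could be fitted for Bin1 mck-/- against WT, which share no numbers. Low levels, such as Cxcl10 in WT muscle, limit precision.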
